A study of Mus musculus with 6 samples.

Results

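Sequenced here were the messenger RNAs of RAW264.7 cells, a mouse macrophage line, and the genes described are 10 members of the CC chemokine family and its receptors. They were taken by gene symbol from the deposited table. All 10 (Ccl2, Ccl3, Ccl4, Ccl5, Ccl6, Ccl7, Ccl9, Ccl22, Ccr1 and Ccrl2) were present among its 18019 rows. A group treated with TPPU, an inhibitor of soluble epoxide hydrolase (n = 3 libraries), was compared with a control group that was not (n = 3 libraries). Every library of both groups came from cells induced with lipopolysaccharide (LPS), a bacterial product that activates macrophages. Neither dose nor duration of TPPU or LPS is given in the sources used here, no library without LPS was analysed here, and all libraries carry the same batch label. Nothing in the labels ties the 3 libraries of a group to separate cultures. The p-values therefore reflect the spread among these libraries alone, which may be technical.

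CC chemokines are small secreted proteins, named for a pair of adjacent cysteines, that draw leukocytes along a gradient by binding G protein-coupled receptors. Activated macrophages are a major source of them. CCL2 and CCL7 act on CCR2 and recruit monocytes, CCL3 and CCL5 act on CCR1, and CCL22 acts on CCR4 of T cells. In LPS-stimulated macrophages their genes are turned on largely through NF-κB and AP-1.

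Values are FPKM as the authors deposited them, that is, fragments scaled for gene length and for the depth of the library. The estimated depth was 17690000 to 22800000 fragments per library, so that a gene of 1 kb reached 1 fragment at 0.0439 to 0.0565 FPKM. All 8 macrophage markers checked were above 1 FPKM in every library, and their summed level was 1761 to 1813 FPKM in TPPU libraries and 1668 to 1805 FPKM in control libraries. Of the 8, Adgre1 and Lyz2 did not overlap between groups, and both were higher in TPPU. All TPPU values lay above all control values in 7.48% of the 9728 tested genes. Adgre1 measured 266 to 271 FPKM in TPPU and 183 to 242 FPKM in control libraries (limma adjusted p = 0.566), and Lyz2 313 to 336 FPKM in TPPU and 236 to 307 FPKM in control libraries (limma adjusted p = 0.562). Their part in the results on chemokine genes was not tested. Among markers of other cell types, the fibroblast list summed to 1.02 to 2.32 FPKM in TPPU and 1.94 to 4.87 FPKM in control libraries, and the T cell list to 3.69 to 4.27 FPKM in TPPU and 3.79 to 4.38 FPKM in control libraries, nearly all of it Lck. The B cell, neutrophil, dendritic cell, epithelial and chondrocyte lists each summed to less than 3 FPKM in every library. Control replicate 3 stood apart. Transcripts of the mitochondrial genome held 0.371% of its FPKM, whereas TPPU replicate 1 had 0.914% and the remaining libraries 1.46% to 1.85%. Across 9522 genes, the deviation of a gene from its mean tracked transcript GC content with Spearman's rho of 0.61 in that library, and of -0.45 to 0.24 in the others. In the labels, each TPPU sample is also linked to a column of a table not used here that is named sh-LIS1. Pafah1b1, which encodes LIS1, measured 10.7 to 14.2 FPKM in TPPU libraries and 6.52 to 14.2 FPKM in control libraries, which overlap.

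The 10 genes spanned more than 4 orders of magnitude. Ccl3 alone held 2.42% to 2.70% of all FPKM in TPPU libraries and 2.51% to 3.19% in control libraries, and ranked 2 or 3 among all genes of the table in every library. Ccl6 and Ccr1 stayed below 1 FPKM in all 6 libraries and so did not enter the test across genes. The other 8 were above 1 FPKM in all 6 and were tested. Summed over the 8 ligand genes, the level was 9980, 10137 and 9487 FPKM in TPPU replicates 1, 2 and 3, against 9737, 9860 and 12095 FPKM in control replicates 1, 2 and 3. Ccl3 made up 77.2% to 80.3% of that sum in TPPU and 76.0% to 79.0% in control libraries.

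No member passed the test. Of the 8 tested, limma called 0 higher and 0 lower at an adjusted p under 0.05, as it did over all genes, where 0% of 9728 were called in each direction. At an unadjusted p under 0.05, 1 member was higher and 4 were lower, against 4.19% and 3.70% of all tested genes. The 4 lower were Ccl2, Ccl4, Ccl7 and Ccrl2. Of them 2, Ccl2 and Ccl7, were left when control replicate 3, TPPU replicate 1, TPPU replicate 2 or TPPU replicate 3 was removed. In those fits 2.15% to 4.15% of all tested genes were lower. Ccl22, the 1 higher, was lost when TPPU replicate 1, TPPU replicate 2 or control replicate 2 was removed. In these fits 2.47% to 4.57% of all tested genes were higher. All TPPU values lay above all control values in 1 member, Ccl22, and below them in 3, Ccl2, Ccl7 and Ccrl2. Over all tested genes these shares were 7.48% and 7.88%. The median log2 change of the 8 was -0.20, beside 0.02 over all tested genes.

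**Figure D1:**
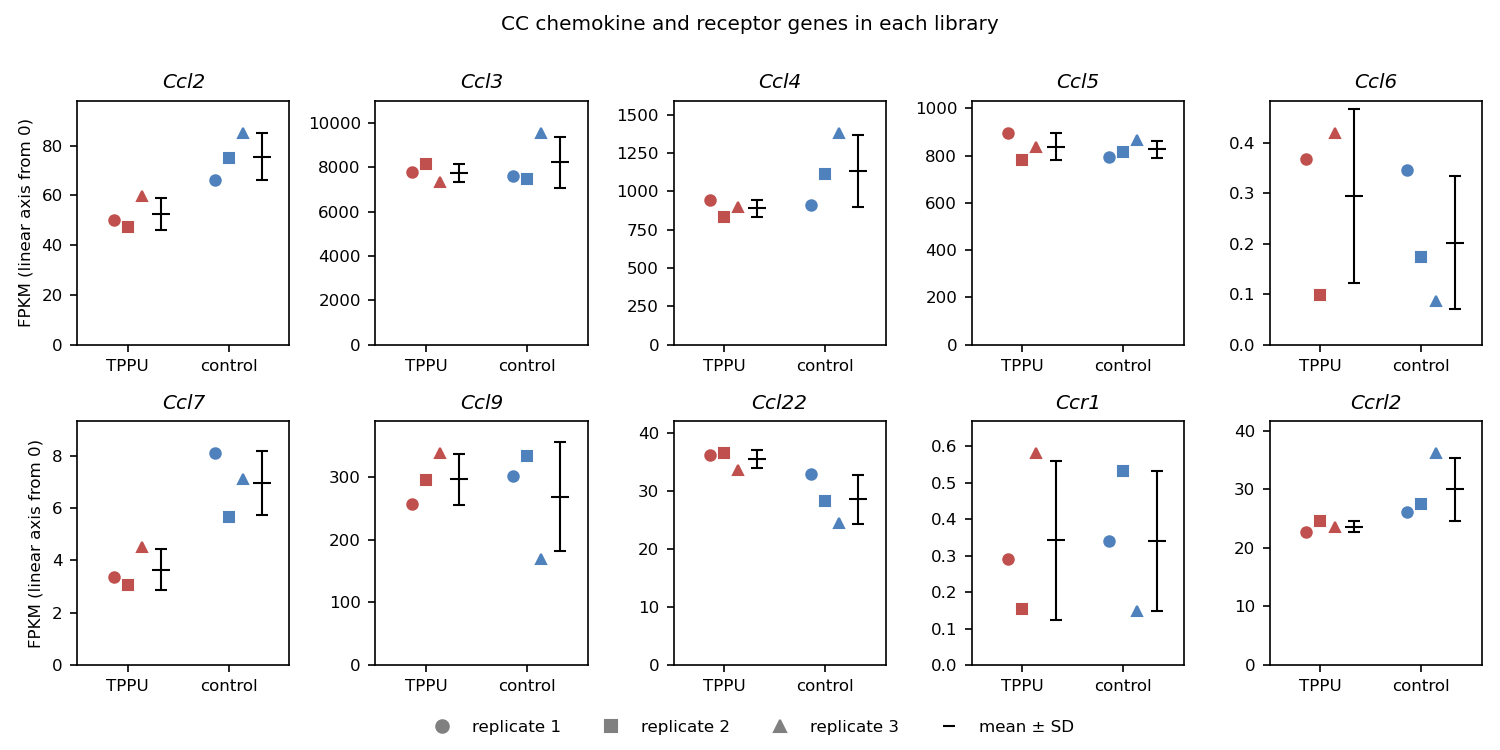
FPKM of each gene in the TPPU libraries (red, left) and the control libraries (blue, right) on linear axes from 0, with symbols for replicates 1 to 3 and the mean ± SD beside them. Ccl2, Ccl7 and Ccrl2 have every TPPU point below every control point, Ccl22 has the opposite, and the other 6 genes overlap.

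Ccl2 encodes the monocyte attractant MCP-1. In bulk RNA such as this, fewer expressing cells and less RNA per cell cannot be told apart. Ccl2 measured 50.3, 47.5 and 59.9 FPKM in TPPU libraries, against 66.4, 75.0 and 85.2 FPKM in control libraries. The groups did not overlap, and the nearest values were TPPU replicate 3 and control replicate 1. The TPPU mean was 52.6 ± 6.49 FPKM and the control mean 75.5 ± 9.43 FPKM (SD, n = 3 each), a ratio of 0.696. On the log2(FPKM + 1) scale the difference was -0.51 (SE 0.13, 95% interval -0.80 to -0.23, limma adjusted p = 0.397), or -0.42 without control replicate 3. These intervals are not adjusted for the number of genes. In the GENCODE annotation Ccl2 lies on the plus strand of chromosome 11 (82035571 to 82037453, mm10) inside Gm17268, a gene of the opposite strand that is not a row of the table. The libraries kept the strand, but whether the counting used it is not given in the sources used here, so fragments of that pair cannot be told apart.

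Ccl7 encodes MCP-3, which shares the receptor CCR2, and starts 8.26 kb beyond the end of Ccl2 on the same strand (82045712 to 82047525). It measured 3.36, 3.07 and 4.53 FPKM in TPPU libraries, against 8.12, 5.66 and 7.12 FPKM in control libraries. Again the groups did not overlap. The difference was -0.78 on the log2(FPKM + 1) scale (SE 0.16, 95% interval -1.15 to -0.40, limma adjusted p = 0.394). It was the largest of the 8 in size, and -0.76 without control replicate 3. The TPPU mean, 3.65 ± 0.77 FPKM, was 0.524 times the control mean of 6.97 ± 1.24 FPKM (SD, n = 3 each). With sample quality weights, which gave control replicate 3 a weight of 0.191 and control replicate 1 a weight of 3.84, Ccl7 passed as lower (log2 change -0.93, limma adjusted p = 0.0232), in a fit that called 0.822% of all genes lower and 0.915% higher. Ccl7 has a single annotated transcript, so its FPKM could be turned into about 49, 56 and 77 fragments in TPPU libraries and about 115, 102 and 109 in control libraries. The exact Poisson 95% interval, which covers counting error alone, was 3.57 to 5.66 FPKM in the highest TPPU library and 4.61 to 6.86 FPKM in the lowest control library. Those intervals overlap.

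Ccl12, a further mouse ligand of CCR2, lies on the same strand beyond Ccl7 and was below 1 FPKM in every library. It measured 0.391 ± 0.058 FPKM in TPPU and 0.556 ± 0.123 FPKM in control libraries (SD, n = 3 each), and the groups overlapped (difference -0.16 on the log2(FPKM + 1) scale, two-sided exact permutation p = 0.2, where 0.1 is the smallest p that 3 against 3 allows).

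The abundant group consisted of Ccl3, Ccl4 and Ccl5, and their TPPU and control values overlapped. Ccl3, which encodes MIP-1α, lies on the minus strand of chromosome 11 (83647844 to 83649355). It measured 7793, 8143 and 7322 FPKM in TPPU libraries, against 7620, 7489 and 9561 FPKM in control libraries. Control replicate 3 was the highest of all 6. The difference was -0.08 (SE 0.11, 95% interval -0.32 to 0.16, limma adjusted p = 0.857), and 0.04 without control replicate 3. The RefSeq promoter of Ccl3, from 250 bases before to 50 after its start (GRCm38.p6, chr11:83649329-83649628, minus strand), is shown because this gene dominates the family. None of the motifs searched was found in this window, and none is in capitals.
Ccl3: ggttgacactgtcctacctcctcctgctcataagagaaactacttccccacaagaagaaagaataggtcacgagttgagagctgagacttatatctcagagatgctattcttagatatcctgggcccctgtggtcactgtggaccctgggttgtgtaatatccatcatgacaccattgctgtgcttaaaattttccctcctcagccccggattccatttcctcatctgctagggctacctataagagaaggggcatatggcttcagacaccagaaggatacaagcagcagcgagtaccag

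Ccl4 encodes MIP-1β. Its gene lies 13.2 kb from Ccl3 and on the opposite strand (83662584 to 83664683). It measured 943, 829 and 895 FPKM in TPPU libraries, against 913, 1111 and 1381 FPKM in control libraries. TPPU replicate 1 lay above control replicate 1, so the groups overlapped. The difference was -0.33 (SE 0.14, 95% interval -0.66 to -0.01, limma adjusted p = 0.627), or -0.18 without control replicate 3, which was again the highest library.

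Ccl5 encodes RANTES, an attractant of T cells and monocytes, from the minus strand (83525778 to 83530518). It measured 896, 783 and 834 FPKM in TPPU libraries, against 794, 817 and 867 FPKM in control libraries. The ranges lay almost on top of each other. The difference was 0.02 (SE 0.08, limma adjusted p = 0.956), and its 95% interval of -0.17 to 0.21 was the narrowest of the 8 members. It was -0.03 without TPPU replicate 1 and -0.01 without control replicate 1.

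Ccl9 and Ccl6 encode CC chemokines found in rodents that act through CCR1. Their genes are neighbours on the minus strand, 9.25 kb apart (Ccl9 at 83572919 to 83578636 and Ccl6 at 83587882 to 83593087), and their levels were far apart. Ccl9 measured 257, 295 and 338 FPKM in TPPU libraries, against 302, 334 and 170 FPKM in control libraries. Control replicate 3 was the lowest, and the other 5 libraries lay between 257 and 338 FPKM. The difference was 0.19 (SE 0.24, 95% interval -0.35 to 0.73, limma adjusted p = 0.837), and -0.11 without control replicate 3. The lowest libraries for Ccl9, control replicate 3 and then TPPU replicate 1, were also the lowest in mitochondrial share. The difference in Ccl9 was 0.29 without TPPU replicate 1 and -0.01 without both of these libraries.

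Ccl6 measured 0.367, 0.098 and 0.420 FPKM in TPPU libraries, against 0.346, 0.173 and 0.088 FPKM in control libraries. The groups overlapped (difference 0.10 on the log2(FPKM + 1) scale, two-sided exact permutation p = 0.5). A noncoding gene of the opposite strand, E230016K23Rik, overlaps Ccl6 and is not a row of the table. Ccl9 was 700 to 3020 times Ccl6 in TPPU libraries and 872 to 1938 times in control libraries, each FPKM being per length of its own gene. The highest ratio of each group came from a Ccl6 value of 0.098 or 0.088 FPKM. These are near the 0.0439 to 0.0565 FPKM of 1 fragment in a gene of 1 kb, so the ratios are imprecise. The 2 promoters are shown because such unlike neighbours share sequence next to their starts. Capitals mark the best local alignment between them, 74 columns with 59 identical bases (79.7% identity). It runs from -59 to 15 around the start of Ccl6 and from -18 to 49 around that of Ccl9. The stretch thus lies mostly before the start in Ccl6 and mostly after it in Ccl9. No other pair among the 6 members with a RefSeq promoter scored as high, and the next, Ccl6 with Ccr1, aligned over 20 columns. Both are on the minus strand (GRCm38.p6, Ccl9 at chr11:83578587-83578886 and Ccl6 at chr11:83593038-83593337).
Ccl9: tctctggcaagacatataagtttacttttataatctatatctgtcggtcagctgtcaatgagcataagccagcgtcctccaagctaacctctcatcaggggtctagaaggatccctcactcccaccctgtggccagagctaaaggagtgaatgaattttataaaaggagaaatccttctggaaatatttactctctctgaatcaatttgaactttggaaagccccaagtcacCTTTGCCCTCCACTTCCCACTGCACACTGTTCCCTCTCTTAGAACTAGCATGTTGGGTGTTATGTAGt
Ccl6: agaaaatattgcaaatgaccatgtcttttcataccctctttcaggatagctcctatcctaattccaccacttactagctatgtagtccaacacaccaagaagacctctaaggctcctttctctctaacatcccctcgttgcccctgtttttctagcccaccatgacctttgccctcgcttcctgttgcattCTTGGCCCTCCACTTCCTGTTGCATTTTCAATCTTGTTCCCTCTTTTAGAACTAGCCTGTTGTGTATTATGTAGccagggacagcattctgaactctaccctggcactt

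No word of 31 bases was shared between the annotated transcripts of any pair of the 10 members. This covers exact matches alone, and the aligner and its allowance for mismatches are not known here. Ccl9 shared such words with 1049 other genes, at most 2.12% of its own words with any of them.

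**Figure D2:**
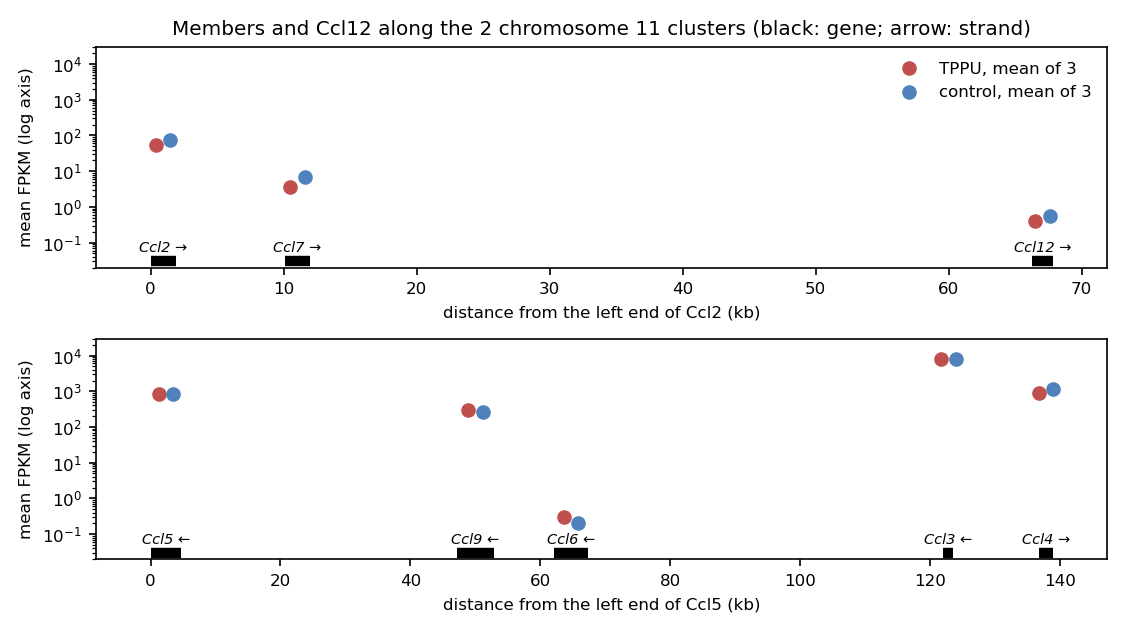
Mean FPKM on a log axis (red TPPU, blue control, n = 3 libraries each) at each gene's place along the 2 chromosome 11 clusters, with distance in kb from the left end of Ccl2 (top) or Ccl5 (bottom). Black bars near the axis are the genes and arrows their strand. The TPPU mean lies below the control mean for Ccl2, Ccl7 and Ccl12 in the upper cluster, though the Ccl12 libraries overlap and are below 1 FPKM. Ccl6 is near 0.2 to 0.3 FPKM between Ccl9 and Ccl3, which are far above it.

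Ccl22, macrophage-derived chemokine, which attracts CCR4-bearing T cells, was the member with all TPPU values above all control values. It lies on the plus strand of chromosome 8 (94745590 to 94751699). It measured 36.2, 36.6 and 33.7 FPKM in TPPU libraries, against 32.9, 28.3 and 24.5 FPKM in control libraries. The gap between the groups was small, 33.7 FPKM in TPPU replicate 3 and 32.9 FPKM in control replicate 1. The mean was 35.5 ± 1.55 FPKM in TPPU and 28.6 ± 4.24 FPKM in control libraries (SD, n = 3 each), a ratio of 1.24. The difference was 0.31 (SE 0.12, 95% interval 0.04 to 0.58, limma adjusted p = 0.575), or 0.21 without control replicate 3, the lowest library.

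Both receptor genes lie far apart on the minus strand of chromosome 9, and their levels differed. Ccr1 encodes the signalling receptor for CCL3 and CCL5 (123962124 to 123968692). It measured 0.291, 0.155 and 0.582 FPKM in TPPU libraries, against 0.339, 0.533 and 0.148 FPKM in control libraries. With a single annotated transcript these values correspond to about 15, 10 and 35 fragments in TPPU and about 17, 34 and 8 fragments in control libraries. The groups overlapped fully (difference 0.00, two-sided exact permutation p = 1.0). In TPPU libraries the exact Poisson 95% interval, for counting error alone, was 0.074 to 0.285 FPKM at the lowest and 0.405 to 0.809 FPKM at the highest value.

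Ccrl2 encodes an atypical receptor that binds the chemoattractant chemerin without the usual G protein signal (111054486 to 111057519). It measured 22.7, 24.6 and 23.5 FPKM in TPPU libraries, against 26.2, 27.6 and 36.2 FPKM in control libraries. Each TPPU library was below each control library, and the TPPU libraries were close together. The mean was 23.6 ± 0.96 FPKM in TPPU and 30.0 ± 5.42 FPKM in control libraries (SD, n = 3 each). The difference was -0.32 (SE 0.13, 95% interval -0.62 to -0.02, limma adjusted p = 0.607), or -0.18 without control replicate 3, the highest library.

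Promoters of the same 300 bases were searched on both strands for a κB-like pattern GGNNTTNCC, an AP-1 pattern TGANTCA, an interferon-response pattern (GAAA repeated after any 2 bases) and TATAAA. Of 32851 RefSeq promoters, 15.96%, 7.81%, 3.44% and 13.6% held them in the order given. These shares are per promoter, and the 6 members with an entry had 8 promoters. The κB-like pattern was found upstream of the outermost Ccrl2 start at 2 places and of Ccl9 at 1. Both AP-1 and TATAAA were found in Ccl9. The Ccl3, Ccl6, Ccl22 and Ccr1 windows held none, nor did the windows of the other annotated Ccrl2 starts. The promoters of Ccrl2 (the outermost of 3 annotated starts, chr9:111057469-111057768, minus strand) and Ccl22 (chr8:94745434-94745733, plus strand) are shown as those of the 2 members with non-overlapping groups and an entry. Capitals mark the κB-like letters. A match is a description of the sequence and not a binding site.
Ccrl2: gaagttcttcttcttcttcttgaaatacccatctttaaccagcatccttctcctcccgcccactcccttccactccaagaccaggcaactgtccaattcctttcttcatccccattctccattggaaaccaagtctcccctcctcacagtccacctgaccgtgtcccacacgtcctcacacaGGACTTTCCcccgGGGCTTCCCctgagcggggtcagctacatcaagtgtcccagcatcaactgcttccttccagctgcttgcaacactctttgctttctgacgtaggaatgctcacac
Ccl22: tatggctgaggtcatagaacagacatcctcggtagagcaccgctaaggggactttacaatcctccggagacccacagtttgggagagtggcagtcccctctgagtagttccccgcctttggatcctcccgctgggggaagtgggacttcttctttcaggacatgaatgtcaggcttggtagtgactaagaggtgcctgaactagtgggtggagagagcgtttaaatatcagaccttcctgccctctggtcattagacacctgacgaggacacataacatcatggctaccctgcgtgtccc

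**Figure D3:**
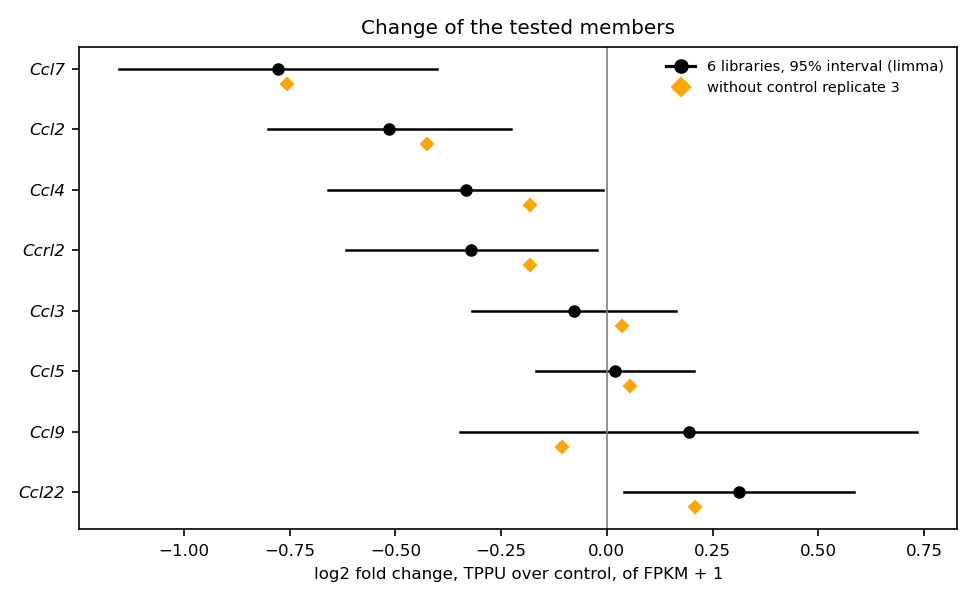
Log2 fold change of TPPU over control for the 8 tested members (black circles, 6 libraries, with the 95% interval from limma) and without control replicate 3 (orange diamonds). The intervals of Ccl7 and Ccl2 lie farthest below 0, and without control replicate 3 the values of Ccl2, Ccl4, Ccl7, Ccl22 and Ccrl2 are nearer to 0 while those of Ccl3 and Ccl9 lie on its other side.

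In TPPU libraries the order of mean levels was Ccl3, Ccl4, Ccl5, Ccl9, Ccl2, Ccl22, Ccrl2, Ccl7, Ccr1 and Ccl6. Ccl4 overlapped with Ccl5 and Ccr1 with Ccl6, and the other neighbours did not overlap. In control libraries Ccrl2 and Ccl22 changed places and overlapped. Ccr1 and Ccl6 kept their order and overlapped, while Ccl4 (913 to 1381 FPKM) lay above Ccl5 (794 to 867 FPKM).

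**Figure D4:**
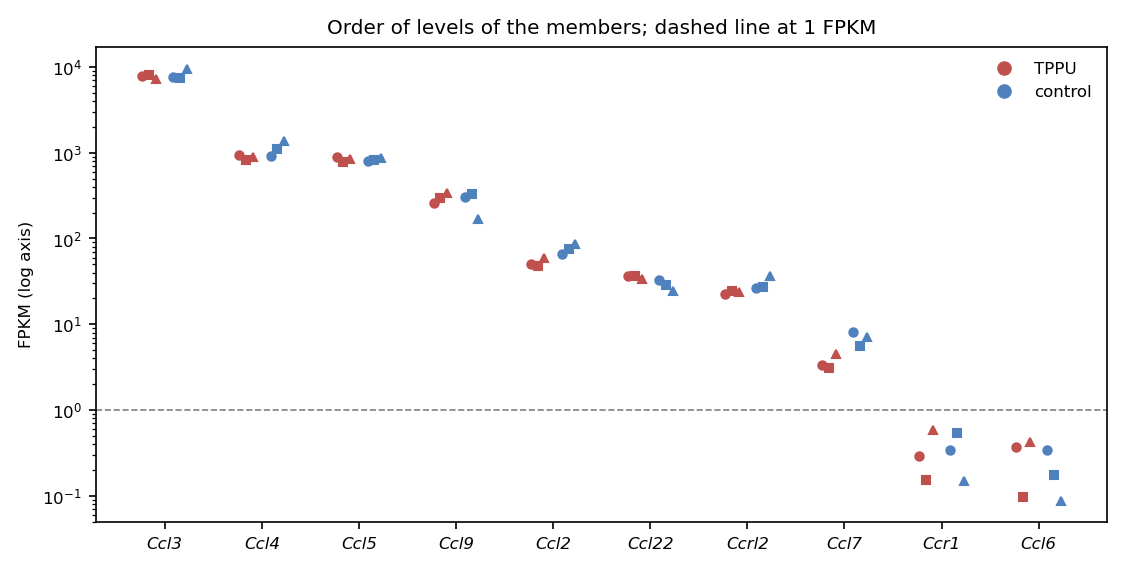
FPKM on a log axis for each gene in order of its mean over 6 libraries, TPPU libraries in red left of control libraries in blue, with circles, squares and triangles for replicates 1, 2 and 3. The dashed line is at 1 FPKM, and Ccr1 and Ccl6 lie below it in all 6 libraries.

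Ratios between members do not depend on the scaling of a library. Of 6 ratios, chosen after the values were seen, 3 did not overlap between groups. Ccl2 and Ccl22 did not overlap by themselves, so the separated ratios that hold them repeat this in part. The share of such ratios over all gene pairs was not computed, so the count of 3 has no background and is not a result about the members. Ccl3 over Ccl2 was 155, 171 and 122 in TPPU libraries, against 115, 99.8 and 112 in control libraries. Ccl22 over Ccl2 was 0.720, 0.770 and 0.563 in TPPU libraries, against 0.496, 0.378 and 0.287 in control libraries. Ccl5 over Ccl4 was 0.950, 0.944 and 0.932 in TPPU libraries, against 0.869, 0.736 and 0.628 in control libraries. For the neighbours, Ccl2 over Ccl7 was 15.0, 15.5 and 13.2 in TPPU libraries, against 8.18, 13.3 and 12.0 in control libraries. The groups overlapped by a small margin, with TPPU replicate 3 just below control replicate 2. Ccl3 over Ccl4 overlapped as well, at 8.18 to 9.82 in TPPU and 6.74 to 8.34 in control libraries. Ccl2 and Ccl7 together made up 0.537%, 0.499% and 0.679% of the ligand sum in TPPU libraries, against 0.765%, 0.818% and 0.763% in control libraries.

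**Figure D5:**
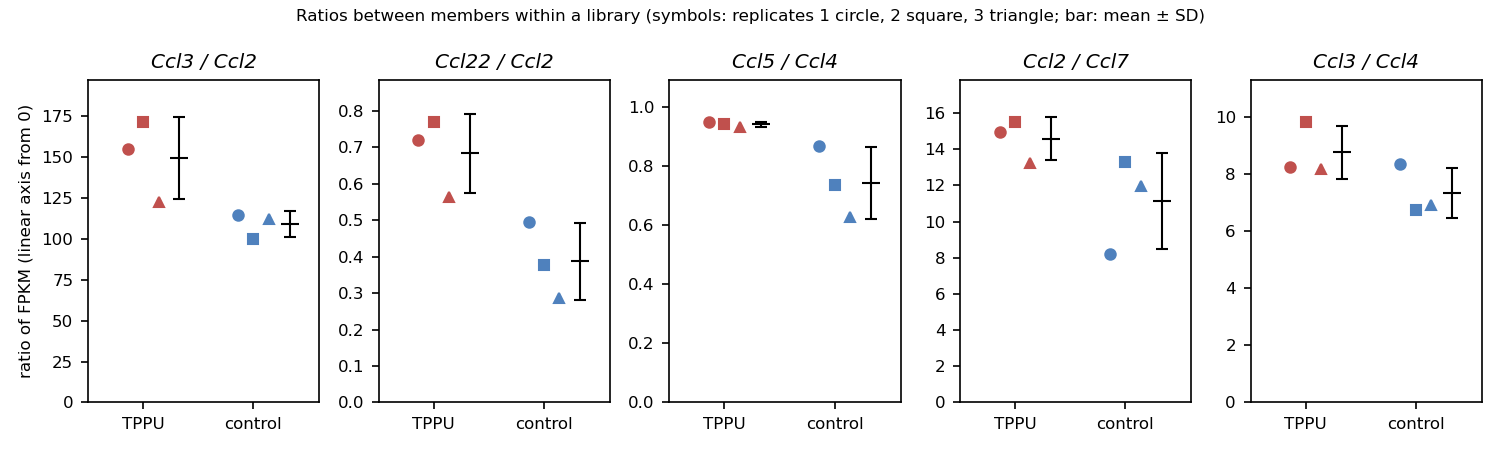
Ratios of FPKM between pairs of members within each library (TPPU red, control blue, linear axes from 0, symbols for replicates, mean ± SD beside them). In the 3 panels on the left the groups do not overlap, and Ccl5 / Ccl4 varies little within TPPU. The pairs were chosen after the values were seen, and the share of such ratios over all gene pairs was not computed.

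Control replicate 3 was the highest library for 4 of the 10 genes (Ccl2, Ccl3, Ccl4 and Ccrl2) and the lowest for 4 (Ccl6, Ccl9, Ccl22 and Ccr1). Over all tested genes it was the highest or the lowest in 62.5%, against 75.0% of the 8 tested members. The coefficient of variation was smaller in TPPU than in control libraries for 6 of 8 members (75.0%), beside 69.5% of all tested genes. Without control replicate 3 it was smaller in TPPU for 3 of 8 (37.5%), beside 36.9% of all tested genes, so the members were near the background in both. Its median over the members was 6.62% in TPPU and 16.3% in control libraries, or 7.88% in control libraries without replicate 3. Over all tested genes the median was 9.18% in TPPU and 13.9% in control libraries, or 6.69% in control libraries without replicate 3.

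Few other CC genes were detected. Of 13 other CC ligands, 3 were rows of the table, and Ccl25, a ligand made chiefly in thymus and gut, was the 1 above the filter. It measured 1.52 ± 0.25 FPKM in TPPU and 1.38 ± 0.39 FPKM in control libraries (SD, n = 3 each, log2 change 0.09, limma adjusted p = 0.886). Of 14 other CC and atypical receptors, 9 were rows and Ccr10 was the 1 tested. It measured 1.70 ± 0.62 FPKM in TPPU and 1.98 ± 0.44 FPKM in control libraries (log2 change -0.16, limma adjusted p = 0.837). Ccr2, the receptor of CCL2 and CCL7, averaged 0.136 FPKM in TPPU and 0.171 FPKM in control libraries.

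Among 23 tested genes of chemokine receptor signalling, 0 passed in either direction (limma, with 1 higher and 1 lower at an unadjusted p under 0.05, beside 4.19% and 3.70% of all tested genes) and the median log2 change was 0.02. All TPPU values lay above control in 2 (Pik3cg and Rgs10) and below in 1 (Rgs1), which is near the 7.48% and 7.88% of all tested genes. The most abundant were Rac2, a GTPase of leukocyte migration, at 459 ± 27.2 FPKM in TPPU and 435 ± 51.2 FPKM in control libraries, and the G protein genes Gnb1 (134 ± 5.99 FPKM in TPPU and 140.0 ± 9.54 FPKM in control libraries) and Gnai2 (122 ± 9.75 FPKM in TPPU and 127 ± 11.4 FPKM in control libraries). All 3 overlapped between groups.

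Among 18 regulators of LPS-induced chemokine genes 0 passed in either direction (limma, with 0 higher and 6 lower at an unadjusted p under 0.05, beside 4.19% and 3.70% of all tested genes). The median was -0.10, and in 6 the TPPU libraries were all below the control libraries, beside 7.88% of all tested genes. These were Nfkbia, Nfkbiz, Jun, Fos, Atf3 and Cebpb. Atf3, a stress-induced repressor, measured 300.4 ± 19.6 FPKM in TPPU and 381 ± 27.1 FPKM in control libraries (log2 change -0.34, SE 0.09, limma adjusted p = 0.411). Nfkbia, the inhibitor of NF-κB, measured 218 ± 12.2 FPKM in TPPU and 284 ± 44.0 FPKM in control libraries. The third by level, Irf7, a factor of the interferon response, overlapped at 215 ± 6.62 FPKM in TPPU and 206 ± 6.85 FPKM in control libraries.

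Of 9 genes of mRNA decay and stability 0 passed (limma, with 0 higher and 3 lower at an unadjusted p under 0.05, beside 4.19% and 3.70% of all tested genes) and the median was -0.14. All TPPU values lay above control in 1 (Elavl1) and below in 3 (Zfp36, Zfp36l1 and Zfp36l2), beside 7.48% and 7.88% of all tested genes. Zfp36, which encodes tristetraprolin, a protein that destabilizes cytokine mRNAs, measured 74.8, 72.4 and 82.8 FPKM in TPPU libraries, against 94.7, 139 and 168 FPKM in control libraries. The groups did not overlap (log2 change -0.76, SE 0.19, limma adjusted p = 0.397), and control replicate 3 was the highest. Khsrp (26.2 ± 2.07 FPKM in TPPU and 27.9 ± 4.24 FPKM in control libraries) and Zc3h12a (21.0 ± 1.69 FPKM in TPPU and 23.9 ± 7.26 FPKM in control libraries) overlapped. Of 3 tested proteases that trim chemokines 0 passed (limma, with 1 higher and 0 lower at an unadjusted p under 0.05, beside 4.19% and 3.70% of all tested genes). Mmp9 measured 51.8 ± 5.52 FPKM in TPPU and 36.7 ± 4.80 FPKM in control libraries (log2 change 0.49, SE 0.12, limma adjusted p = 0.402). All its TPPU values lay above all control values, beside 7.48% of all tested genes. Adam17 overlapped at 23.3 ± 1.38 FPKM in TPPU and 22.2 ± 0.97 FPKM in control libraries, as did Adam10 at 16.5 ± 1.30 FPKM in TPPU and 15.4 ± 0.89 FPKM in control libraries.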

How the data were processed

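Poly(A) RNA of 6 libraries was prepared with dUTP strand marking, per the labels' protocols. The authors deposited 1 table of FPKM, a unit taken from its name and values. The submitters' processing notes name mm10. Neither aligner, counting program nor annotation is given in the sources used here. Library names in the labels tied columns to samples. Depth was estimated from genes with a single transcript in GENCODE M21, whose low FPKM values are whole multiples of 1 fragment. At the estimate, 91.6% to 92.6% of these values were whole within 0.1 fragment, beside 20.0% by chance. These estimates were not tested as counts.

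Tested were the 9728 genes that reached 1 FPKM in 3 or more libraries, leaving out 8291, as log2(FPKM + 1), a scale that understates changes of low genes. The test was limma (version 3.58.1 in R 4.3.3), fitting group alone and letting the variance follow the mean, two-sided, with Benjamini-Hochberg adjustment over all tested genes at 0.05. Genes below the filter had an exact permutation test. The script was tested on simulated data. The 10 members, the lists and the tests were chosen with earlier results of these data known. Genes named were all members, other CC genes above 1 FPKM in any library, the 3 of highest mean in each other list, and further genes chosen after their values were seen. Promoters came from RefSeq (GRCm38.p6), with entries for 6 of 10 members, and alignments from Biopython 1.88. Positions are 1-based. Alternatives were pseudocounts of 0.1 and 0.5, quantile normalization, scaling by median of ratios, no filter or one on a mean of 5 FPKM, no trend, sample quality weights, robust empirical Bayes, a replicate block, removal of GC and length trends (loess, span 0.3, values for 97.9% of tested genes), and each library left out. Leaving out control replicate 3 and TPPU replicate 1 together was chosen after seeing the data.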

Additional observations from a re-analysis of the deposited data

How the results depend on the processing

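Ccl2, Ccl4, Ccl7, Ccl22 and Ccrl2 kept their direction under all 19 alternatives, and Ccl6 under all 10 that could be run for it. Among these, Ccl7 passed with sample quality weights (-0.93, limma adjusted p = 0.0232, range over its alternatives 0.0232 to 0.908), and no other member passed under any alternative. Leaving out 1 library gave -0.61 to -0.42 for Ccl2, -0.48 to -0.18 for Ccl4, -0.91 to -0.67 for Ccl7, 0.21 to 0.42 for Ccl22 and -0.41 to -0.18 for Ccrl2. For Ccl6, which was below 1 FPKM, it gave 0.03 to 0.22. The ranges crossed 0 for Ccl3 (-0.14 to 0.036), Ccl5 (-0.0306 to 0.0672), Ccl9 (-0.11 to 0.38) and Ccr1 (-0.12 to 0.10). With sample quality weights Ccl3 was 0.03 and Ccl9 -0.0045, and without both control replicate 3 and TPPU replicate 1 they were 0.0315 and -0.0081. With a length trend removed Ccl5 was -0.0697. Ccr1 was -0.0071, -0.0012 and -0.0021 with pseudocounts of 0.1 and 0.5 and with median-of-ratios scaling. The cause of these reversals was not tested. Over all genes, the counts of 0 higher and 0 lower became 89 and 80 with sample quality weights, 29 and 10 without both libraries, and 1 lower with the GC trend removed. Leaving out each library in turn gave 0 to 5 higher and 0 to 1 lower, the 5 and 1 without TPPU replicate 1. With the replicate number as a block, 0 genes were higher and 0 lower, and Ccl2 and Ccl7 had adjusted p of 0.616 and 0.568 by limma, so it changed no call. At an unadjusted p under 0.05, 2 members were lower with the block, beside 2.49% of all genes in that fit. With sample quality weights 2 were lower, beside 8.19%. Over all alternatives 2 to 4 were lower, beside 2.15% to 8.19%. Whether the numbers pair the libraries was not settled. Same-numbered deviations correlated at -0.30, 0.15 and -0.40, and differently numbered ones at -0.45 to 0.51. Deviations within a group of 3 sum to 0, so these correlations are not independent of each other. Depth limits Ccr1, with 8 to 35 fragments per library, and Ccl6.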

Other observations

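Genes that are not chemokines but lie within 200 kb of a member were looked up as a further description. Of 32 in the table, 17 were tested with limma and 0 passed in either direction, with a smallest adjusted p of 0.564 and a median log2 change of -0.02. TPPU values lay above all control values in 1 (Coq9, near Ccl22) and below them in 2 (Arl2bp, near Ccl22, and Heatr6, near Ccl4), which is near the 7.48% and 7.88% of all tested genes. These genes were named after their values were seen. Coq9, a gene of coenzyme Q synthesis, measured 22.6 ± 1.04 FPKM in TPPU and 20.5 ± 0.91 FPKM in control libraries.

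Wfdc17, which lies 39.3 kb from Ccl4 and encodes a WAP-domain protein and was also named after its values were seen, varied more between libraries than any of the 8 tested members. It measured 17.2, 50.5 and 84.3 FPKM in TPPU libraries, against 50.5, 84.6 and 4.22 FPKM in control libraries. Its lowest libraries, control replicate 3 and then TPPU replicate 1, were those lowest in Ccl9 and in mitochondrial share. Heatr9, which lies 3.60 kb from Ccl5, measured 15.4, 17.6 and 13.3 FPKM in TPPU libraries, against 14.8, 6.66 and 5.75 FPKM in control libraries. The groups overlapped (log2 change 0.81, SE 0.29, limma adjusted p = 0.564). Of the tested neighbours, only Heatr9 was higher and only Arl2bp lower at an unadjusted p under 0.05 by limma, beside 4.19% and 3.70% of all tested genes.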
